A study of Mus musculus with 10 samples.

Results

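The 10 genes described here encode the enzymes that build, elongate and desaturate fatty acids: Acly, Acss2, Acaca, Fasn, Scd1, Scd2, Elovl5, Elovl6, Fads1 and Fads2. They were chosen by symbol, and all 10 were found among the 16865 gene symbols of the table and passed the filter on low values. Bulk RNA was sequenced from 10 leukemic spleens of C57BL/6 mice. The Sirt1 deleted group (n = 5) came from mice injected intraperitoneally with tamoxifen (3 mg each, dissolved in corn oil), and the Control group (n = 5) from mice given corn oil alone. Every mouse had been irradiated below the lethal dose and had received T cell acute lymphoblastic leukemia (T-ALL) intravenously, and in both groups the leukemia carried a conditional Sirt1 knockout allele. The labels give neither the recombinase that deletes Sirt1 nor the ages of the mice, nor which original leukemia each mouse received. All p-values therefore describe how these libraries vary, which may be technical. No group received tamoxifen without the deletion, so the drug and the deletion cannot be told apart.

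Fatty acid synthesis starts from cytosolic acetyl-CoA, which ATP citrate lyase (Acly) makes from citrate and acetyl-CoA synthetase (Acss2) makes from acetate. Acetyl-CoA carboxylase (Acaca) turns it into malonyl-CoA, and fatty acid synthase (Fasn) joins these units into palmitate. Elongases (Elovl5, Elovl6) lengthen the chains, stearoyl-CoA desaturases (Scd1, Scd2) make monounsaturated fatty acids, and the front-end desaturases Fads1 and Fads2 act on polyunsaturated ones. Many of these genes are known targets of the SREBP transcription factors, which also drive cholesterol synthesis, and dividing lymphoid cells are known to use the pathway to make membranes. Sirt1 is a NAD-dependent protein deacetylase.

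On the mouse genome build GRCm38 the genes lie on 5 chromosomes. Acly (chr11:100476353-100528000, minus strand), Acaca (chr11:84129672-84401651, plus strand) and Fasn (chr11:120805846-120824547, minus strand) share chromosome 11. Both pairs of desaturase genes lie on chromosome 19. Fads2 (chr19:10062765-10101746, minus strand) and Fads1 (chr19:10182888-10196877, plus strand) point away from each other across 81.1 kb. Scd2 (chr19:44293674-44306864, plus strand) and Scd1 (chr19:44394455-44407879, minus strand) point toward each other across 87.6 kb. Elovl5 (chr9:77917364-77984519), Elovl6 (chr3:129532355-129638495) and Acss2 (chr2:155517948-155585724) are on the plus strands of chromosomes 9, 3 and 2.

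RefSeq promoter windows (build GRCm38.p6, 250 bases before to 50 bases after the start site) were at hand for 7 of the 10 genes. The windows of Acly, Elovl6 and Fads2 are shown because these genes carry differences described below. The window of Elovl5, which did not pass the test given below, is shown beside that of Elovl6 as the other elongase. Each is given 5′ to 3′ on the gene's own strand, and capitals mark matches on either strand to an Sp1 box (GGGCGG), an NF-Y box (CCAAT), an E-box (CACGTG) or a sterol regulatory element (TCACNCCAC).
Acly, chr11:100527951-100528250, minus strand: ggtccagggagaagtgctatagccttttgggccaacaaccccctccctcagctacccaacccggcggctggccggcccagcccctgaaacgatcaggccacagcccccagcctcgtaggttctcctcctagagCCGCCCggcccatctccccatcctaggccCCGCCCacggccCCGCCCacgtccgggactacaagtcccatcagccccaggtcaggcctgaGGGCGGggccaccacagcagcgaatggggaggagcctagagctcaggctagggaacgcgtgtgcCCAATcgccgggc
Elovl6, chr3:129532136-129532435, plus strand: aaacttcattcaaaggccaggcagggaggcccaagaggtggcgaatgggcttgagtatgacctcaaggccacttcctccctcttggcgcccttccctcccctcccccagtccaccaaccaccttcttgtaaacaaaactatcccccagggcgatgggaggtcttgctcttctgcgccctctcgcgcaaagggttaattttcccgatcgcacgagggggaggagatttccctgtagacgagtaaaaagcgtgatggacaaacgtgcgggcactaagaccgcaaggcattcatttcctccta
Elovl5, chr9:77917115-77917414, plus strand: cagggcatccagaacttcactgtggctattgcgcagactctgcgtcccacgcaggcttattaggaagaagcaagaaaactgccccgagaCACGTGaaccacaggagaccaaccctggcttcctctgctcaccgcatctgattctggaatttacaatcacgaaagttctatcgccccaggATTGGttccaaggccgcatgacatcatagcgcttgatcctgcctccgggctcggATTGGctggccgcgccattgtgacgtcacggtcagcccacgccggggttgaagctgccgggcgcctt
Fads2, chr19:10101454-10101753, minus strand: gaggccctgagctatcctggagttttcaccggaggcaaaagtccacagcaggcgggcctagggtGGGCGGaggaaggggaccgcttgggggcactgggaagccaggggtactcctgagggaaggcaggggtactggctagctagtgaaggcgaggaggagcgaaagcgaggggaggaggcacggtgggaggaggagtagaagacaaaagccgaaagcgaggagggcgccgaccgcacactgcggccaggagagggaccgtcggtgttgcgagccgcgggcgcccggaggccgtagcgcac
The Acly window held 4 Sp1 boxes and 1 NF-Y box, the Elovl5 window 2 NF-Y boxes and 1 E-box, the Fads2 window 1 Sp1 box, and the Elovl6 window none of the 4 motifs. The windows not printed held 3 NF-Y boxes in Fasn, 5 Sp1 boxes and 1 NF-Y box in Acss2, and no match in Acaca. The Acaca window begins at chr11:84195188, inside the gene bounds given above and not at their start. No match to the sterol regulatory element as spelled here was found in any of the 7 windows. Among 32851 windows of the same length, 1.24% held that element, 7.15% the E-box, 37.4% the NF-Y box and 35.7% the Sp1 box. In Fasn the boxes at 62 and 59 bases before the start site share letters. A match describes letters only, and a missing match says nothing about binding elsewhere.

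The normalized counts summed to 33.6 to 34.8 M per library, and the depth, read off the spacing of low values, was about 21.1 to 39.0 M reads in Sirt1 deleted libraries and 28.3 to 44.4 M in Control libraries. Sirt1 itself held 710 to 1071 normalized counts in Sirt1 deleted libraries and 1126 to 1348 in Control libraries, a mean of 74.4% of the Control mean. The groups did not overlap (exact permutation p = 0.00794, two-sided, the smallest that 5 against 5 allows). Such a separation, with every Sirt1 deleted library below every Control, was shown by 8.18% of all tested genes. Differences of all genes followed transcript length, and libraries carried this trend to different degrees. Its slope (log2 deviation from the mean of all libraries per doubling of length) ran between -0.201 and -0.0187 in Sirt1 deleted libraries and between 0.00318 and 0.125 in Control libraries. The enzyme transcripts are long, with a median of 4629 bases against 3001 over all tested genes, so the results for enzymes are also given with every library corrected for length and GC content. The log2 difference of Sirt1 was -0.44 as deposited (limma, adjusted p = 0.0125) and -0.26 with this correction (limma, adjusted p = 0.0313). Whether the trend arose in the cells or in the handling of RNA was not tested.

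Scd2 had the highest level of the 10 per length of transcript, with 3125 ± 369 normalized counts per kb in Sirt1 deleted and 3860 ± 385 in Control libraries (SD, n = 5 each). Acly followed with 2136 ± 357 and 2942 ± 269, then Elovl5 with 1929 ± 184 and 2036 ± 93.5, and Fasn with 1031 ± 159 and 1319 ± 114, each time in Sirt1 deleted and then Control libraries. The lowest levels per kb were those of Elovl6 (109 ± 17.8 in Sirt1 deleted, 161 ± 14.1 in Control) and Scd1 (72.3 ± 21.4 in Sirt1 deleted, 104 ± 22.9 in Control). The order of the 10 genes was the same in both groups. All these levels use the longest coding transcript of a gene. For Elovl6 this has 5951 bases, while its shortest principal transcript has 2610. At that shorter length Elovl6 would stand higher per kb, and its place in the order was not examined. In Sirt1 deleted libraries the per-kb ranges of Acly (1577 to 2480) and Elovl5 (1616 to 2074) overlapped, as did those of Fads2 (524 to 734) and Fads1 (549 to 674). In Control libraries neither pair overlapped, with Fads2 at 704 to 840 per kb and Fads1 at 630 to 687. Scd2, a stearoyl-CoA desaturase best known from mouse brain, stood 43.2-fold above Scd1 per kb in Sirt1 deleted and 37.2-fold in Control libraries.

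All 10 enzymes had lower mean values in Sirt1 deleted than in Control spleens, and 6 of them fell in the test, namely Acly, Acaca, Fasn, Scd2, Elovl6 and Fads2. Over all 13567 tested genes 17.5% were called lower and 14.5% higher (limma-trend on log2(value + 1), Benjamini-Hochberg adjusted p under 0.05), and the median log2 difference was 0.00097, against -0.35 over the 10 enzymes. With length and GC content corrected, 3 enzymes were called lower (Acly, Elovl6 and Fads2), where 6.07% of 13304 genes were, and the median of the 10 was -0.15. The 3 were joined by Acaca when the shortest principal transcript set the length (4 of 10, against 7.34% of genes). No enzyme was called higher by limma (0 of 10), none was higher at an unadjusted p under 0.05, and the count was 0 by robust limma and with array weights. At that unadjusted level 7 enzymes were lower, against 23.7% of all genes. Without the 3 libraries of steepest slope (Sirt1 deleted 5, Control 1 and Control 2) 0 of the 10 were called, against 0.00752% of genes. The spleens were bulk samples, so fewer cells of a type and less RNA per cell cannot be told apart.

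**Figure D1:**
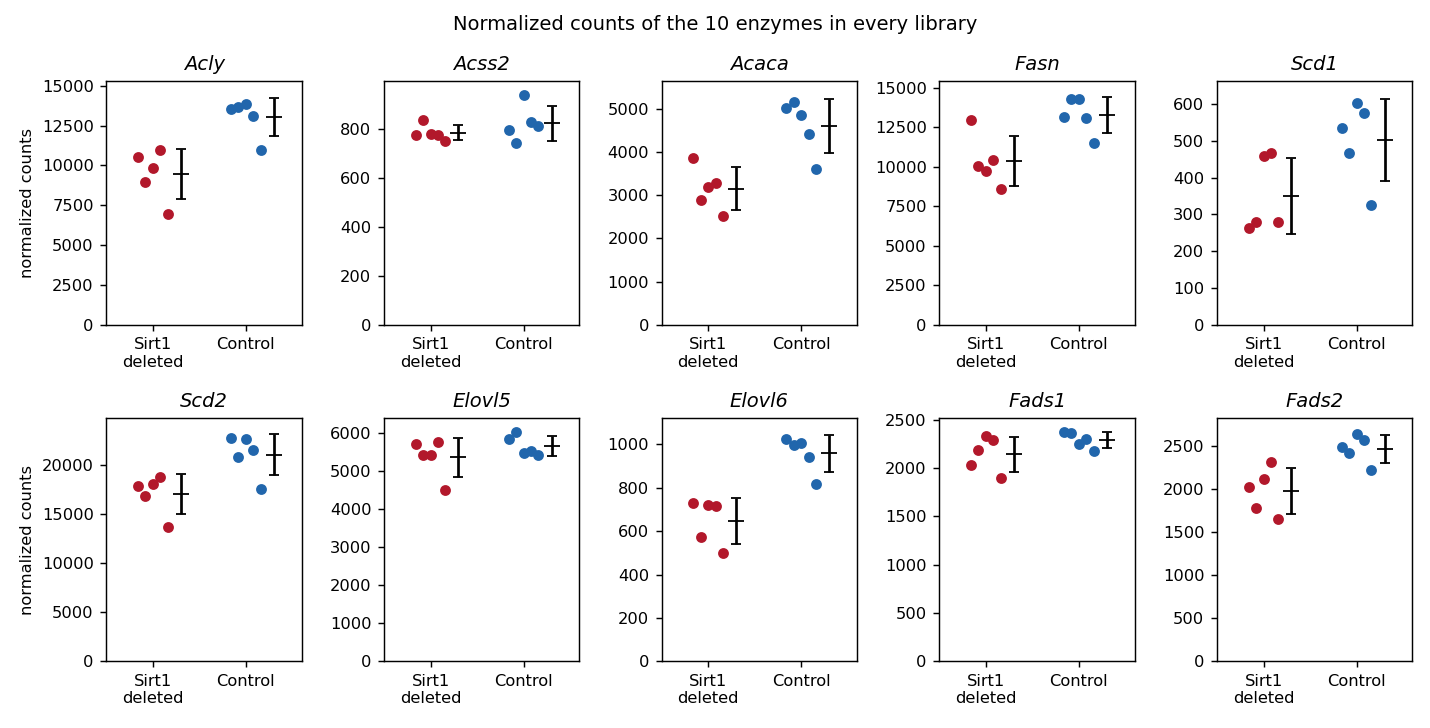
Normalized counts (y axes, from 0) of the 10 enzymes in Sirt1 deleted (red, left) and Control (blue, right) libraries, each point 1 library in replicate order and the bar the mean ± SD of 5. Elovl6 is the gene whose groups do not overlap; Acss2, Elovl5 and Fads1 lie at similar heights in both groups.

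Acly, the lyase that feeds citrate carbon into lipid synthesis, held 10520, 8973, 9831, 10977 and 6978 normalized counts in Sirt1 deleted libraries 1 to 5, against 13522, 13650, 13883, 13091 and 10958 in Control libraries 1 to 5. Sirt1 deleted library 4 lay just above Control library 5, and every other Sirt1 deleted library lay below every Control. The log2 difference was -0.47 (SE 0.110, adjusted p = 0.0108), and it was -0.35 (SE 0.0878, adjusted p = 0.0222) after correction. Acss2, which uses acetate instead, held 777, 837, 779, 777 and 752 in Sirt1 deleted libraries, against 795, 741, 938, 829 and 810 in Control libraries. The groups lay within each other, and the log2 difference of -0.065 did not pass (95% interval -0.21 to 0.084, adjusted p = 0.486).

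Acaca, the carboxylase that commits acetyl-CoA to fatty acids, held 3868, 2899, 3199, 3294 and 2517 normalized counts in Sirt1 deleted libraries, against 5019, 5168, 4867, 4415 and 3601 in Control libraries. Only Sirt1 deleted library 1 lay above a Control library, the fifth. Its log2 difference was -0.55 (SE 0.116, adjusted p = 0.00872), and after correction it was -0.20 and no longer passed (adjusted p = 0.0555). When the correction used the shortest principal transcript of each gene instead of the longest coding one, Acaca stood at -0.21 with an adjusted p of 0.0464. Fasn, the synthase, held 12941, 10066, 9753, 10454 and 8586 in Sirt1 deleted libraries, against 13175, 14268, 14268, 13068 and 11486 in Control libraries. Sirt1 deleted library 1 again lay within the Control range and the other 4 below it. Its log2 difference of -0.36 (SE 0.0958, adjusted p = 0.0157) was -0.11 after correction, which did not pass (adjusted p = 0.195).

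Among the desaturases, Scd2 held 17886, 16796, 18109, 18761 and 13671 normalized counts in Sirt1 deleted libraries, against 22710, 20862, 22638, 21498 and 17564 in Control libraries. Control library 5 lay below 3 of the Sirt1 deleted libraries. The log2 difference of Scd2 was -0.31 (SE 0.0920, adjusted p = 0.0248), with -0.079 (adjusted p = 0.383) after correction. The call was lost when Control library 1, 2, 3 or 4 or Sirt1 deleted library 2 was left out, at -0.28 to -0.31 (adjusted p up to 0.0670). Scd1 held 264, 280, 459, 466 and 279 in Sirt1 deleted libraries, against 536, 468, 603, 576 and 326 in Control libraries. Its libraries spread most of the 10 enzymes, with a coefficient of variation of 29.5% in Sirt1 deleted and 22.1% in Control libraries. Its log2 difference of -0.54 (SE 0.200) missed the threshold (adjusted p = 0.0556), as did the corrected -0.33 (adjusted p = 0.217). Scd1 was called with array weights (-0.55, adjusted p = 0.0246) and when Control library 5, Sirt1 deleted library 3 or Sirt1 deleted library 4 was left out, and its difference without 1 library ran between -0.68 and -0.45. About 201 to 533 reads stood behind Scd1 in each Sirt1 deleted library and 386 to 731 in each Control library, a counting error of 4.33% to 7.05% and of 3.70% to 5.09%, well under the spread between libraries.

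The front-end desaturases differed from each other. Fads2, the desaturase that acts first on dietary polyunsaturated fatty acids, held 2025, 1777, 2123, 2313 and 1650 normalized counts in Sirt1 deleted libraries, against 2495, 2415, 2645, 2569 and 2218 in Control libraries. Sirt1 deleted library 4 lay above Control library 5 and the other 4 below all Controls. The log2 difference was -0.33 (SE 0.0873, adjusted p = 0.0163), and it was -0.34 (SE 0.0875, adjusted p = 0.0240) after correction. Fads1, which acts later in the same route, held 2029, 2183, 2331, 2287 and 1899 in Sirt1 deleted libraries, against 2378, 2361, 2246, 2306 and 2181 in Control libraries. These groups overlapped, with a log2 difference of -0.10 (95% interval -0.24 to 0.036, adjusted p = 0.232).

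The elongases split in the same way. Elovl6, which lengthens palmitate to stearate, held 730, 572, 722, 715 and 498 normalized counts in Sirt1 deleted libraries, against 1025, 997, 1006, 940 and 818 in Control libraries. It was the 1 enzyme of 10 with every Sirt1 deleted library below every Control, a separation shown by 8.18% of all tested genes. A count of 1 of 10 is close to that share, so it does not set the enzymes apart from other genes. By its longest transcript Elovl6 is among the genes of 4947 bases or more, of which 51.0% were called lower. How often genes of that length separate in this way was not examined. After correction Elovl6 was again the only enzyme to separate, against 3.3% of genes. Its log2 difference of -0.58 (SE 0.111, adjusted p = 0.00797) was the largest in size of the 10, and after correction it stood at -0.29 (SE 0.0659, adjusted p = 0.0169). That correction took Elovl6 at the 5951 bases of its longest transcript; with the shorter principal transcript of 2610 bases the difference was -0.52 (adjusted p = 0.00940), and which of them the spleens expressed is not given by values per gene. Elovl5, which lengthens polyunsaturated chains, held 5719, 5422, 5422, 5769 and 4496 in Sirt1 deleted libraries, against 5852, 6023, 5467, 5542 and 5436 in Control libraries. Apart from a low Sirt1 deleted library 5 the groups overlapped, and the log2 difference of -0.083 (95% interval -0.23 to 0.065) did not pass (adjusted p = 0.364).

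**Figure D2:**
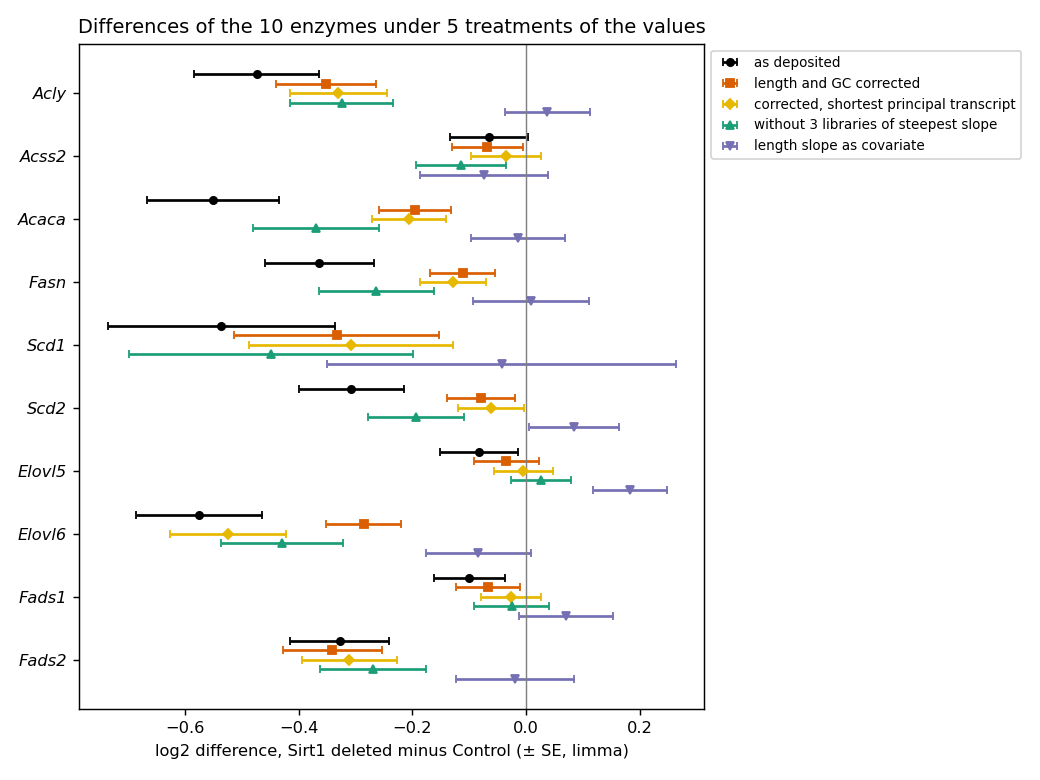
Log2 difference, Sirt1 deleted minus Control (x axis, points with SE from limma), of each enzyme (y axis) in the deposited values, after 2 forms of correction for length and GC content, without the 3 libraries of steepest length slope, and with the slope as a covariate. All enzymes but Acss2, Elovl5 and Fads1 lie left of 0 by more than their SE in the first 4 treatments, and with the covariate the 10 lie between -0.084 for Elovl6 and 0.18 for Elovl5.

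Whether neighbouring enzymes changed unequally was tested within libraries, as the log2 value of 1 gene minus that of its partner, for 6 pairs. Elovl6 minus Elovl5 averaged -3.06 ± 0.142 in Sirt1 deleted and -2.57 ± 0.108 in Control libraries (SD, n = 5 each), a difference of -0.49 without overlap (exact permutation p = 0.00794, 0.0238 adjusted over 6 pairs). Fads2 minus Fads1 averaged -0.12 ± 0.133 in Sirt1 deleted and 0.10 ± 0.0905 in Control libraries, a difference of -0.23, also without overlap (exact permutation p = 0.00794, 0.0238 adjusted). After correction the elongase pair differed by -0.25 and the Fads pair by -0.27, each with the same p-values. With the correction on the shortest principal transcript the elongase pair differed by -0.52 and the Fads pair by -0.28, again with these p-values. The longest Fads transcripts are of like length, 3150 bases for Fads2 and 3460 for Fads1, while those of Elovl6 (5951) and Elovl5 (2782) differ. The shortest principal transcript of Elovl6 has 2610 bases. How often other pairs of genes separate in this way was not examined.

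The other pairs were less firm. Acss2 minus Acly averaged -3.57 ± 0.253 in Sirt1 deleted and -3.98 ± 0.173 in Control libraries, a difference of 0.41 (exact permutation p = 0.0238, adjusted 0.0357), which was 0.28 after correction and no longer passed (exact permutation p = 0.0397, adjusted 0.0595). Fasn minus Acaca differed by 0.19 (exact permutation p = 0.0238, adjusted 0.0357), and by 0.084 after correction (exact permutation p = 0.0952, adjusted 0.114). Both calls were kept without Control library 5 or Sirt1 deleted library 4 and were lost without any of the other 8 libraries (exact permutation, adjusted p up to 0.0714). Acaca minus Acly differed by -0.077 (exact permutation p = 0.270) and Scd1 minus Scd2 by -0.23 (SE 0.182, exact permutation p = 0.246), and neither passed.

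**Figure D3:**
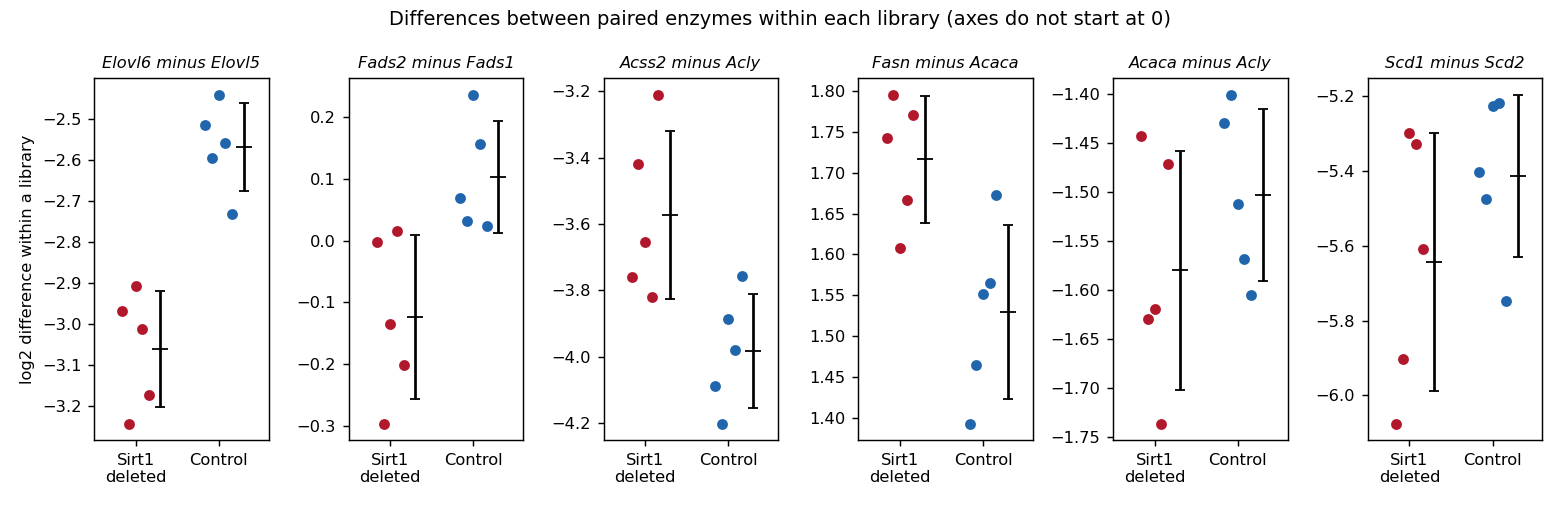
Log2 value of the first enzyme minus that of the second within each library (y axes, which do not start at 0), Sirt1 deleted in red on the left and Control in blue on the right, with mean ± SD of 5. The Elovl6 and Fads2 panels show separate groups, while the Acaca and Scd1 panels overlap widely.

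Transcript length sets a background for these differences. Genes were split by length into 5 classes of equal size. In the class of longest transcripts (4947 bases or more), which holds Acaca, Fasn, Scd2 and Elovl6, 51.0% of 2661 genes were called lower and the median log2 difference was -0.27. The values of Scd2 and Fasn differed from that median by -0.033 and -0.090, and those of Acaca and Elovl6 by -0.28 and -0.30. In the next class (3504 to 4946 bases), with 24.0% called lower and a median of -0.11, Acly lay -0.36 and Scd1 -0.43 from the median. The middle class (2556 to 3503 bases) holds Acss2, Elovl5, Fads1 and Fads2, and 8.39% of it was called lower around a median of -0.0054. There Fads2 lay -0.32 from the median and the other 3 between -0.094 and -0.060. Elovl6 was classed by its longest transcript. Its shortest principal transcript, of 2610 bases, lies within the bounds of this middle class. Within their classes 5.08% of genes had a lower difference than Scd1, which was not called, 6.54% than Acly, 7.82% than Fads2, 12.6% than Elovl6, 14.8% than Acaca, 34.9% than Fasn and 44.8% than Scd2. For Fads1, Elovl5 and Acss2 the shares were 31.7%, 35.1% and 38.5%.

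**Figure D4:**
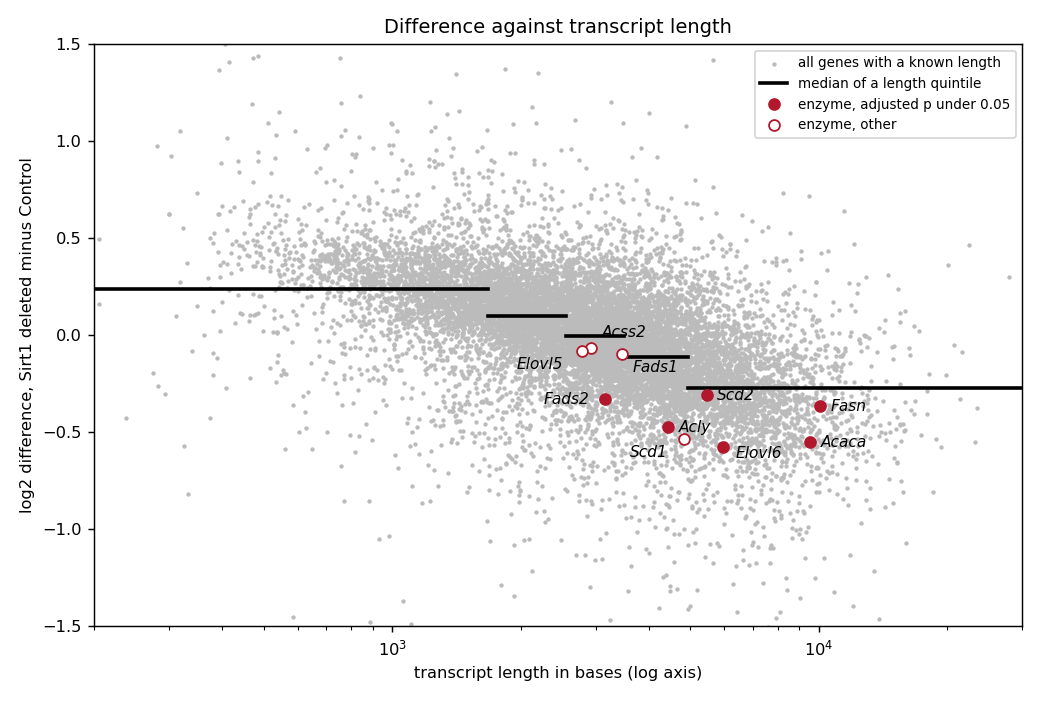
Log2 difference, Sirt1 deleted minus Control (y axis, cropped to 1.5 either way), against transcript length in bases (log x axis, cropped) for all tested genes with a known length in grey and the 10 enzymes in red, filled where the adjusted p was under 0.05. Black bars are medians of 5 length classes, at 0.24 for the shortest and -0.27 for the longest; Scd2 lies near its bar and Fads2 well under its own.

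In some libraries most of the enzymes were low at once. Sirt1 deleted library 5, which has the steepest slope on length (-0.201), was the lowest of its group for 9 of the 10 enzymes, and the lowest of all 10 libraries for 8. Control library 5, whose slope was 0.00318, was the lowest Control for 9 of the 10. Over all tested genes of the longest class Sirt1 deleted library 5 was the lowest of its group for 64.9% and Control library 5 for 57.4%, and in the middle class these shares were 33.2% and 25.5%. In Sirt1 deleted library 4 the median log2 deviation of the enzymes from their means over 10 libraries was -0.0053, and in Control library 5 it was -0.018. Single enzymes differed between them: Scd1 deviated by 0.19 in Sirt1 deleted library 4 and by -0.32 in Control library 5, and Elovl6 by -0.13 in Sirt1 deleted library 4 and by 0.066 in Control library 5. After correction the medians were 0.038 in Sirt1 deleted library 4 and -0.033 in Control library 5.

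**Figure D5:**
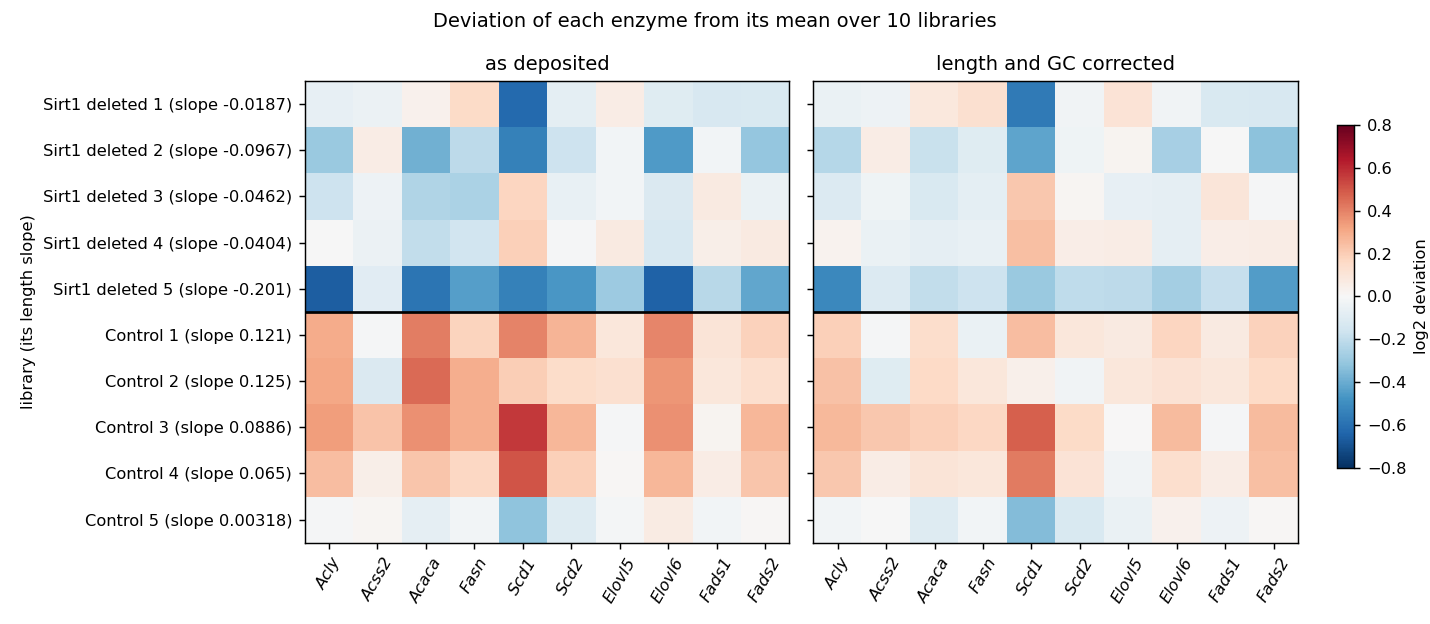
Log2 deviation of each enzyme (columns) from its mean over 10 libraries, for Sirt1 deleted (upper rows) and Control (lower rows) libraries with their length slopes, as deposited on the left and corrected for length and GC content on the right. Sirt1 deleted library 5 is blue throughout, Control libraries 1 to 4 are mostly red, and Control library 5 is pale or blue.

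Reads of some enzymes can be shared with other genes. Of the 31-base words in the longest Acaca transcript, the word length kallisto uses by default, 56.8% also occur in the annotated gene Gm5182, which is not among the symbols of the table. Of all words of Scd1, 8.30% occur in some other gene, 5.92% in Scd3, 5.26% in Scd2 and 3.46% in Scd4, and a word can occur in several. Of all words of Scd2, 6.86% occur in some other gene, 4.87% in Scd3 and 4.66% in Scd1. Scd3 and Scd4, the other members of that cluster, averaged 23.7 and 18.0 normalized counts in Sirt1 deleted and 24.2 and 18.3 in Control libraries. Elovl6 shared 7.06% and Acss2 8.69%, and Acly, Fasn, Elovl5 and Fads1 shared none. Part of the reads counted for Acaca and Scd1 may thus belong to these copies, which was not tested.

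Outside the 10 enzymes, gene lists around the pathway are described by counts, and no list was tested as a set. Their background is the share of all tested genes, 17.5% called lower and 14.5% higher. After correction 6.07% of 13304 genes were called lower, and 1103 were called higher. Of 11 tested genes of SREBP control and lipogenic transcription, 4 fell, 1 rose and 6 did not pass, and 2 fell after correction. Srebf1, which encodes the SREBP best known for fatty acid genes, averaged 4718 ± 239 in Sirt1 deleted and 4884 ± 304 in Control libraries (log2 difference -0.049, 95% interval -0.17 to 0.073, adjusted p = 0.523). Srebf2, whose product is best known for cholesterol genes, averaged 7607 ± 1034 in Sirt1 deleted and 9478 ± 696 in Control libraries, a log2 difference of -0.33 (adjusted p = 0.0188) that was -0.23 after correction (adjusted p = 0.0461) and missed the threshold without Control library 1 (-0.30, adjusted p = 0.0532). The SREBP escort Scap (-0.10, adjusted p = 0.222) and the retention factor Insig1 (-0.24, adjusted p = 0.124) did not pass, though Insig1 did without Sirt1 deleted library 3 (-0.34, adjusted p = 0.0237). The liver X receptor genes went opposite ways: Nr1h2 rose by 0.30 (adjusted p = 0.00856; 0.076 and not called after correction), and Nr1h3, which macrophages are known to express, averaged 139 ± 37.9 in Sirt1 deleted and 212 ± 33.0 in Control libraries (-0.62, adjusted p = 0.0164; -0.79 after correction, adjusted p = 0.00799). Mlxip, a glucose-responsive factor, fell by 0.29 (adjusted p = 0.0160) but stood at -0.019 after correction.

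Acetyl-CoA carboxylase is also controlled by phosphorylation and by partner proteins. Of 11 tested genes of that list, 3 fell and 1 rose, against 17.5% lower and 14.5% higher over all tested genes. Prkaa2, a catalytic subunit of the AMP-activated kinase that inhibits the carboxylase, averaged 169 ± 25.4 in Sirt1 deleted and 307 ± 45.2 in Control libraries (-0.86, adjusted p = 0.00797; -0.48 after correction, adjusted p = 0.0121). Stk11, the kinase that activates it, rose by 0.31 (adjusted p = 0.0107; 0.17 after correction, adjusted p = 0.0346). Mid1ip1, which helps the carboxylase polymerize, stood at -0.0076 (adjusted p = 0.943), with its sign turned by TMM factors, quantile normalization and several other settings. Of 10 tested genes that supply acetyl-CoA, citrate and NADPH, 3 rose and 1 fell. The citrate carrier Slc25a1 rose by 0.26 (adjusted p = 0.0157) but stood at 0.017 after correction, Mdh1, a malate dehydrogenase, rose by 0.23 (adjusted p = 0.0189; 0.22 corrected) and Idh1, which yields NADPH, fell by 0.31 (adjusted p = 0.0255; -0.30 corrected). The Mdh1 call was lost without Control library 1 or 2 (0.21 and 0.22), and the Idh1 call without Control library 1, 2 or 4 (-0.28 to -0.30).

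Of 18 other tested genes of elongation and desaturation, 0 were called in limma in either direction, with 2 higher and 3 lower at an unadjusted p under 0.05, 0 by robust limma, and 2 higher and 2 lower with array weights. These include the reductase and dehydratase genes that complete each elongation cycle and the cytochrome b5 genes that feed electrons to desaturases. Their median log2 difference was -0.043. Of 21 tested genes that activate or esterify fatty acids, 6 fell and 2 rose, against 17.5% lower and 14.5% higher over all tested genes. Lpcat1, a lysophospholipid acyltransferase, averaged 677 ± 131 in Sirt1 deleted and 1056 ± 94.2 in Control libraries (-0.66, adjusted p = 0.00797; -0.61 corrected, adjusted p = 0.00828). Acsl4, which activates arachidonate, fell by 0.69 (adjusted p = 0.00915; -0.41 corrected, adjusted p = 0.0156), and Gpam, the mitochondrial glycerol-phosphate acyltransferase, fell by 0.42 (adjusted p = 0.0109) with -0.15 and no call after correction on the longest transcript, but -0.36 and a call (adjusted p = 0.0199) on the shortest principal one. Of 13 tested genes of uptake and storage, 3 fell and 0 rose (2 at an unadjusted p under 0.05 in limma, 0 by robust limma and 1 with array weights). Among them were the fatty acid receptor Cd36 (-0.88, adjusted p = 0.0104; -0.76 corrected, adjusted p = 0.0156) and lipoprotein lipase Lpl (-0.78, adjusted p = 0.0121; -0.62 corrected, adjusted p = 0.0350). Macrophages are known to express Cd36 and Lpl as well as Nr1h3, and whether macrophage content plays a part in these differences was not tested. The macrophage marker sums, given below, did not overlap between the groups, so a fit with them cannot tell macrophage content from group. With the summed macrophage markers as a covariate in limma, the log2 difference of Lpl was -0.27 (adjusted p = 0.381), the log2 difference of Nr1h3 was -0.31 (adjusted p = 0.362) and the log2 difference of Cd36 was -0.58 (adjusted p = 0.195), in a fit that called no gene at all.

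Fatty acid synthesis in mitochondria uses separate enzymes, and 3 of its 9 tested genes rose while 0 fell (1 at an unadjusted p under 0.05 in limma, 0 by robust limma or with array weights). Ndufab1, the mitochondrial acyl carrier protein and a subunit of complex I, averaged 3027 ± 225 in Sirt1 deleted and 2146 ± 333 in Control libraries (0.51, adjusted p = 0.00797; 0.60 corrected, adjusted p = 0.00734). Mecr rose by 0.22 (adjusted p = 0.0429; -0.027 corrected, without a call) and Cbr4 by 0.21 (adjusted p = 0.0441; 0.38 corrected, adjusted p = 0.0175). Both calls were lost in 7 of 10 cases when a library was left out, at 0.17 to 0.22. Of 22 cholesterol synthesis genes, 10 fell and 1 rose, with 7 and 0 after correction. The shares over all tested genes were 17.5% lower and 14.5% higher, and 6.07% lower after correction. Hmgcs1, a cytosolic synthase early in the route, averaged 2036 ± 378 in Sirt1 deleted and 3036 ± 308 in Control libraries (-0.59, adjusted p = 0.00855; -0.49 corrected), and Lss, lanosterol synthase, averaged 996 ± 65.8 in Sirt1 deleted and 1275 ± 71.5 in Control libraries (-0.36, adjusted p = 0.00797; -0.21 corrected).

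The 14 T cell markers summed to 227400 to 253376 normalized counts in Sirt1 deleted and 230416 to 244017 in Control libraries. Of these 14, 3 rose and 2 fell. As for every marker list here, the background before correction is 14.5% of all tested genes called higher and 17.5% lower. Of 12 macrophage markers 6 fell and 0 rose (0 at an unadjusted p under 0.05 in limma, and 0 by robust limma or with array weights), and their sum was 4203 to 7463 in Sirt1 deleted and 8052 to 12399 in Control libraries. Of 10 erythroid markers 3 fell, with sums of 170342 to 391908 in Sirt1 deleted and 360868 to 453684 in Control libraries. Of 9 B cell markers 3 rose, with sums of 299.8 to 491 in Sirt1 deleted and 227 to 318 in Control libraries. Of 9 neutrophil markers 2 rose, with sums of 1997 to 8552 in Sirt1 deleted and 1456 to 4166 in Control libraries. The part of erythroid, neutrophil, endothelial and stromal markers in the enzyme results was not tested, nor was that of macrophage or B cell markers beyond the covariate fits below. After correction 6.07% of 13304 tested genes were called lower, and 1103 were called higher. Beside that background, 6 macrophage and 5 of 9 erythroid markers were called lower after correction, and 2 B cell markers were called higher. In the same corrected fit 1 T cell marker was called lower, and no neutrophil marker was called. Of 10 adipocyte markers 4 were listed. Lipe averaged 140 ± 15.3 in Sirt1 deleted and 142 ± 16.1 in Control libraries, Fabp4 70.6 ± 28.1 in Sirt1 deleted and 95.5 ± 6.29 in Control libraries (log2 difference -0.54, adjusted p = 0.125), Pnpla3 9.41 in Sirt1 deleted and 11.7 in Control libraries, and Plin1, too low to be tested, 1.92 in Sirt1 deleted and 1.54 in Control libraries. Of 10 endothelial and stromal markers 5 were tested and 2 fell, Pecam1 (2249 ± 156 in Sirt1 deleted, 2737 ± 214 in Control) and Col1a2 (2945 ± 179.8 in Sirt1 deleted, 3565 ± 402 in Control), of which Pecam1 was called after correction. Pdgfrb (22535 ± 1940 in Sirt1 deleted, 24160 ± 1027 in Control), Col1a1 (104 ± 7.90 in Sirt1 deleted, 87.5 ± 14.6 in Control) and Vwf (85.4 ± 10.2 in Sirt1 deleted, 90.1 ± 16.02 in Control) did not pass. The other 5 were too low to be tested, from Tek at 0.744 in Sirt1 deleted and 2.10 in Control libraries to Col3a1 at 11.8 in Sirt1 deleted and 7.33 in Control libraries. Pdgfrb and Col1a2 thus stood far above Col1a1 and Col3a1. Which cells of the spleens expressed the genes of this list was not tested, so their values do not measure an endothelial or stromal fraction.

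With the summed macrophage markers as a covariate in limma the differences were -0.60 for Acaca, -0.53 for Fasn, -0.52 for Acly, -0.58 for Elovl6 and -0.19 for Scd1. The macrophage sums did not overlap between the groups, so this fit cannot tell macrophage content from group. No gene at all was called in that fit (0 of 13567, with 3770 genes with an unadjusted p under 0.05). With the summed B cell markers as a covariate they were -0.48 for Acaca, -0.36 for Fasn, -0.32 for Acly, -0.38 for Elovl6 and -0.17 for Fads2, and 0 enzymes and 1 gene in all were called. With the length slopes entered as a covariate instead, the enzymes ranged from -0.084 for Elovl6 to 0.18 for Elovl5. In that limma fit 0 of 13567 genes were called (0.0% lower), with 589 genes at an unadjusted p under 0.05. The slopes did not overlap between the groups, so the fit cannot tell the length trend from group.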

How the data were processed

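Strand-specific libraries were made from total RNA of filtered, red cell lysed spleen suspensions, per the labels' protocols. Per the submitters' processing notes the authors worked with kallisto 0.44.0, DESeq and build mm10. They deposited a signal per gene, normalized counts with a column for each of the 10 libraries, and 0 columns were left unused. Their annotation, gene filter, summing of transcripts and handling of strand are not given in the sources used here. The values are not whole, so no count model was fitted.

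Genes with a value of 10 or more in at least 5 libraries (13567) were compared as log2(value + 1), Sirt1 deleted minus Control, by limma 3.58.1 (trend) in R 4.3.3 without covariates, with Benjamini-Hochberg adjustment over all of them and a threshold of 0.05, two-sided. A fold on this scale is slightly understated for low genes. Standard errors are the moderated ones of limma. Pairs of enzymes were compared by exact permutation over 252 splits in scipy 1.17.1 (Python 3.11.15). Length and GC content came from the longest coding transcript of each gene in GENCODE M21 (any transcript where none is coding) for 13304 tested genes (98.1%); natural splines with 5 degrees of freedom on each were subtracted from every library. A real difference that runs with length is removed as well.

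The enzymes and gene lists were chosen with earlier results of these data known. Named are the enzymes, Sirt1, Srebf1, Srebf2, Scap, Insig1, Mid1ip1 and, from each pathway list, the 3 called genes with the smallest p, of which some are counted with their lists and not reported here by name. Scd3, Scd4, Gm5182 and single adipocyte, endothelial and stromal markers were named after their values were seen. Alternatives are described in the closing section. Replicate numbers follow library order and pair nothing.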

Additional observations from a re-analysis of the deposited data

Results flagged for a closer look

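Among 86 sets of 5 libraries examined for the named genes and enzyme pairs, 5 had a library whose gap to the next exceeded Dixon's 95% limit; chance alone does this in about 1 of 20 sets. Acly was low in Control library 5, at 10958 normalized counts (0.729 of the range). Elovl5 was low in Sirt1 deleted library 5, at 4496 (0.727). Prkaa2 was low in Control library 5, at 229 (0.736), Nr1h3 was high in Sirt1 deleted library 5, at 204 (0.711), and Cd36 was low in Control library 3, at 464 (0.780). Control library 5 and Sirt1 deleted library 5 are also the libraries with the flattest slope of the Control group and the steepest slope of the Sirt1 deleted group.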

How the results depend on the processing

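Results were recomputed under 23 other settings and 3 more chosen after seeing the data (omission of the 3 libraries of steepest length slope, correction on the shortest principal transcript, and correction with that omission). Against 6 enzymes called lower as reported, 5 to 7 were with 1 library left out and 7 with array weights, where Scd1 joined. The count was 3 after correction for length and GC content, and 0 with B cell markers, macrophage markers or the length slope as a covariate, without the 3 steepest libraries, and with correction and that omission together. The median of the 10 moved to -0.15 after correction, -0.17 on principal transcripts, -0.12 with correction and omission and -0.0029 with the slope. The genes called in all, counted as genes called over the table, were 4344 as reported, 2212 to 4711 without 1 library (2346 without Control library 1, 2212 without Control library 2, 2717 without Sirt1 deleted library 2), 1910 after correction, 2151 on principal transcripts, 1 with B cell markers, 2 without the steepest libraries, and 0 with macrophage markers, the slope, or correction and omission.

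Sirt1 lost its call with B cell markers (-0.20), macrophage markers (-0.34), the slope (-0.0070), the omission (-0.27) and the correction with it (-0.16). With the slope as a covariate Acly (0.037), Fasn (0.0084), Scd2 (0.084), Elovl5 (0.18), Fads1 (0.070), Srebf1 (0.084), Srebf2 (0.066), Scap (0.057), Insig1 (0.14), Mid1ip1 (0.058) and Mdh1 (-0.022) changed sign; none was called. So did Elovl5 (0.0023) and Insig1 (0.020) with B cell markers, Elovl5 without the steepest libraries (0.026) and with both (0.057), Srebf1 after quantile normalization (0.025), and Mecr after correction (-0.027, and -0.012 with omission). Mid1ip1 did so with TMM factors (0.0019), quantile normalization (0.010), array weights (0.0033), B cell markers (0.028) and the omission (0.046), and lay between -0.051 and 0.024 without 1 library. Because the slopes did not overlap between the groups, the fit with them cannot tell the length trend from group, and the causes were not tested.

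Among pairs, Elovl6 minus Elovl5 and Fads2 minus Fads1 kept their calls whichever library was left out. Pairs were tested under 18 of the 26 settings, and never with the slope as a covariate. As single genes in that fit, Elovl6 stood at -0.084, Elovl5 at 0.18, Fads2 at -0.020 and Fads1 at 0.070. With the 3 steepest omitted, 4 against 3 libraries cannot go below p = 0.0571 in an exact permutation test. The elongase and Fads pairs then stood at -0.46 and -0.24, and with correction too at -0.31 and -0.27. Acss2 minus Acly lost its call after correction (0.28), on principal transcripts (0.29), with omission (0.21) and with both (0.14), and spanned 0.32 to 0.47 without 1 library. Fasn minus Acaca lost its call after quantile normalization (0.18), correction (0.084), principal transcripts (0.078), omission (0.11) and both (0.029), and spanned 0.15 to 0.22. Acaca minus Acly, never called, reversed after correction (0.16), on principal transcripts (0.12) and with both (0.11). No paired analysis was possible because the labels give no numbers that match Control with Sirt1 deleted samples. Depth was lowest for Scd1 among the enzymes, with about 201 to 731 reads a library.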
